A study of Mus musculus with 13 samples.

Results

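The cytosolic ribosomal protein genes were described in the non-ischaemic left ventricle of infarcted and sham-operated mice. They were taken by symbol, as Rpl and Rps genes with their lettered and l-type paralogues, the stalk genes Rplp0, Rplp1 and Rplp2, and Rpsa. The rule gave 83 genes of the 36172 gene entries in the count table, after 1 matching pseudogene entry was left out. Reads were listed for 82 of them, and 80 passed the filter on low counts. Rpl10l and Rpl39l did not pass, and Rps3a was listed at 0 in all 13 libraries. Rps3a is one of 13593 gene entries that had no transcript entry and held 0 reads, which arose before the table was deposited and is no measurement of that gene.

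All mice were C57BL/6JO1aHsd and 8 to 10 weeks old at the start. The sham group (n = 3) had sham surgery and no antibody. Myocardial infarction (MI) was made by permanent ligation of the left anterior descending coronary artery, and the infarcted mice received either a control labelled as mouse anti IgG antibody (n = 5) or FG-3149 (n = 5), labelled as a monoclonal antibody against CTGF, each labelled 10 mg/kg. Time was given as 1W+6W, which the labels do not spell out. The samples are numbered within each group and the series' design text speaks of animals, but no label says that each library came from a separate animal, so p-values measure the spread between these libraries.

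The cytosolic ribosome has a small subunit, which reads the mRNA and carries the Rps proteins, and a large subunit, which forms the peptide bond and carries the Rpl proteins. Most of these proteins are made in matched amounts in every cell, and their mRNAs begin with a run of pyrimidines, the 5' terminal oligopyrimidine tract, through which mTOR signalling sets their translation. A few have a paralogue with a restricted pattern. The best known in heart is Rpl3l, which is made in striated muscle and takes the place of Rpl3 close to the peptidyl transferase centre.

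Rpl3 and Rpl3l are shown first, because they carried the main difference in the family. Their first 90 coding bases, taken from GENCODE M21 transcripts matched to the RefSeq accessions of the count table, run as follows, with the 21 bases at which the genes differ in capitals.
Rpl3: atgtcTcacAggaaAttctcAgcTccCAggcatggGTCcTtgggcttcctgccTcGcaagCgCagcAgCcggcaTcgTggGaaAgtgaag
Rpl3l: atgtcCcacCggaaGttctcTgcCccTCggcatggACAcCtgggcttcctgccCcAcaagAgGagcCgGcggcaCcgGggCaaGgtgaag
Over the 1209 aligned coding bases 74.4% were identical, and the longest identical run was 22 bases. None of the 1150 stretches of 75 bases in Rpl3l, the length of a read, occurred in the coding sequence of Rpl3 (0 of 1150), so reads of the coding part of both genes can be told apart.

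The promoters were read for the 63 of the 83 genes that had a promoter entry, and Rpl3 had none. The 5' pyrimidine tract was searched on the strand that reads as the mRNA does. It was taken as an unbroken run of at least 8 C or T, holding at least 1 C. The window ran from 20 bases before to 50 bases after a RefSeq start site. The other strand and other motifs were not searched, so overlap with another motif was not tested. Of the 63 genes with a promoter entry, 48 held such a run (76.2%), against 28.3% of the 27025 genes with an entry. Rps12, Rpl13a and Rpl13 are printed from RefSeq (GRCm38.p6) from 50 bases before to 30 after the start, with the run in capitals.
Rps12: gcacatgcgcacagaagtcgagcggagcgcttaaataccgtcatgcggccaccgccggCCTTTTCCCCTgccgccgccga
Rpl13a: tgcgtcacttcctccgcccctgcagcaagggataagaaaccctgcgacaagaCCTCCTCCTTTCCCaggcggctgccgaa
Rpl13: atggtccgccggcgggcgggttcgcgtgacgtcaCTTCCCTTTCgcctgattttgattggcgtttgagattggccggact
The Rps12 window is chr10:23787180-23787259 on the minus strand, the Rpl13a window is chr7:45128716-45128795 on the minus strand, and the Rpl13 window is chr8:123102300-123102379 on the plus strand. In Rps12 and Rpl13a the run lay after the annotated start, and in Rpl13 just before it. Such a match describes the letters in the window only.

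Library totals were 10954922 to 17567238 estimated counts. The 83 genes together made up 2.01 to 2.07% of each sham library, 2.04 to 2.23% of each IgG library and 2.06 to 2.27% of each FG-3149 library. Cardiomyocyte markers were abundant in every library, as the labelled tissue has them: the summed level of 14 markers, in counts-per-million (CPM), was 112550 to 121587 in sham, 99821 to 108626 in the IgG group and 104805 to 113210 in the FG-3149 group. The 11 fibroblast markers summed to 2749 to 2924 CPM in sham, 4473 to 6491 in the IgG group and 4137 to 4778 in the FG-3149 group, and the 9 macrophage markers to 344 to 352, 460 to 713 and 487 to 798 CPM. None of the markers found in the table was at 0 in all libraries. Rn45s, the ribosomal RNA precursor that should be scarce in mRNA libraries, ranged from 0.276 to 0.334% of a library in sham, from 0.673 to 1.94% after IgG and from 0.199 to 2.86% after FG-3149. In such bulk tissue, fewer cells of a type and less RNA per cell cannot be told apart.

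The levels of the genes spanned a wide range per unit of length. In RPKM (reads scaled by library size and by kilobases of transcript, here the mean over all libraries), the highest were Rplp1 (841), a protein of the stalk that recruits translation factors, Rps29 (737), Rps2 (723) and Rpl41 (710). At the low end were Rpl10l (0.00501), Rpl39l (0.156), Rpl7l1 (23.5) and Rps15a (30.5). The paralogues thus differed in their share of the pair. Rpl3l made up 46.7% of the summed RPKM of Rpl3 and Rpl3l over all libraries. Rpl22l1 made up 31.4% of its pair with Rpl22, Rps27l 17.2% of its pair with Rps27 and Rpl7l1 4.86% of its pair with Rpl7. Rpl39l was at 0.0527% of its pair with Rpl39, and Rpl10l, a gene of the testis, at 0.000995% of its pair with Rpl10. The reads of these last paralogues were too few to test.

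Infarction was compared with sham first, in the mice given IgG. The sham mice had no antibody, so infarction and antibody injection cannot be told apart in either contrast with sham. Rpl3 rose and its muscle paralogue Rpl3l fell, and these were the 2 largest changes of the family in either direction. Of the 80 genes tested, 18 were higher and 1, Rpl3l, was lower with IgG than in sham, at a Benjamini-Hochberg adjusted p under 0.05 over all genes (edgeR's quasi-likelihood test). Among all 13434 genes tested, 17.8% were called higher and 15.9% lower. Either way it was 33.7% of all genes. The share of ribosomal protein genes called higher (22.5%) was therefore near the background, and the share called lower (1.25%) was below it. The libraries of the groups did not overlap in 24 genes that were higher and 4 that were lower, against 18.2% and 17.7% of all genes. The median log2 fold change of the 80 genes was 0.068, against -0.001 for all genes, and 76.2% of them lay above 0, against 49.8% of all genes.

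Rpl3 (chr15:80077781-80083406, minus strand, as listed in the count table, mm10), whose protein lies next to the peptidyl transferase centre, stood at 184, 166 and 171 CPM in the sham libraries. It stood at 283, 335, 299, 298 and 276 CPM with IgG and at 259, 274, 273, 290 and 261 CPM with FG-3149. Every infarcted library was above every sham library, and both infarcted groups overlapped each other. The group means were 174 ± 9.63 CPM (SD, n = 3) in sham, 298 ± 22.8 (n = 5) with IgG and 271 ± 12.4 (n = 5) with FG-3149. The rise was 1.72-fold with IgG (log2 fold change 0.78 ± 0.06 SE, edgeR adjusted p = 2.14e-07) and 1.56-fold with FG-3149 against sham (0.64 ± 0.06, adjusted p = 3.31e-06).

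Rpl3l (chr17:24727829-24736149, plus strand, as listed in the count table, mm10) moved the other way. It stood at 307, 318 and 327 CPM in sham, at 218, 176, 189, 181 and 187 CPM with IgG and at 216, 190, 228, 186 and 225 CPM with FG-3149. No infarcted library reached the lowest sham library. The means were 317 ± 9.9 CPM (SD, n = 3), 190 ± 16.1 (n = 5) and 209 ± 19.9 (n = 5). Against sham the level was 0.599-fold with IgG (log2 fold change -0.74 ± 0.07 SE, edgeR adjusted p = 1.03e-06) and 0.659-fold with FG-3149 (-0.60 ± 0.07, adjusted p = 2.05e-05).

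The sum of both genes did not separate the groups. Their summed level was 483 to 499 CPM in sham, 463 to 511 in the IgG group and 464 to 501 in the FG-3149 group, so that the groups overlapped. In RPKM, which allows both genes to be set side by side, Rpl3l was the larger part of the pair in sham and the smaller part after infarction. Its share was 64.7% ± 1.88 (SD, n = 3) in sham, 39.1% ± 3.34 (n = 5) with IgG and 43.5% ± 3.29 (n = 5) with FG-3149. The log2 ratio of Rpl3l to Rpl3 counts was lower by 1.52 with IgG than in sham, written as -1.52, and the 2-sided exact permutation p was 0.0357, the smallest that 56 groupings of 5 and 3 libraries allow. With FG-3149 the difference from sham was -1.25, again with the smallest exact permutation p of 0.0357. Adjusted over the 3 contrasts, both exact p-values were 0.0536, which misses 0.05.

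**Figure D1:**
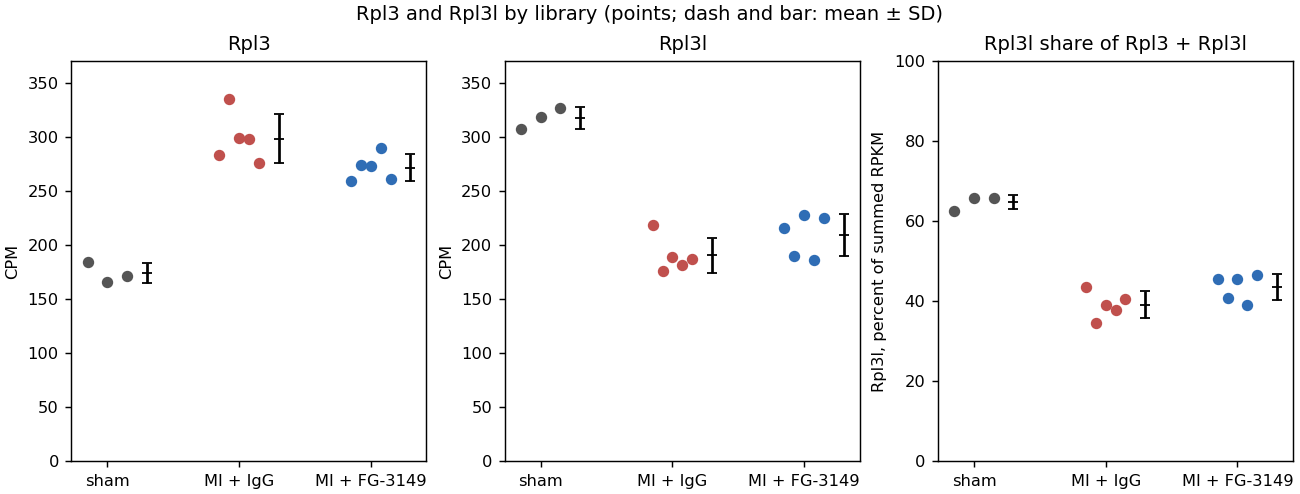
Levels of Rpl3 and Rpl3l in CPM and the Rpl3l share of their summed RPKM, by group; each point is a library, and the dash with bars is the mean ± SD (n = 3 sham, 5 IgG, 5 FG-3149). Rpl3 lies at 166 to 184 CPM in sham and at 259 or above in every infarcted library, whereas Rpl3l lies at 307 or above in sham and at 228 or below after infarction.

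Markers of other cells moved with this pair. Of the 14 cardiomyocyte markers, 6 were lower and 1 higher with IgG than in sham, and their median log2 fold change was -0.09. All but 1 of the 11 fibroblast markers were higher (10 of 11, median 1.01), among them Postn, a matrix protein of activated fibroblasts, at 14.7-fold (edgeR adjusted p = 4.39e-06). Of 9 macrophage markers tested, 7 were higher (median 0.78). Their part in the change of Rpl3 and Rpl3l was not tested. The reads of the 3' part of both transcripts, downstream of the middle, gave nearly the same values as the whole genes, with log2 fold changes of 0.77 for Rpl3 and -0.71 for Rpl3l with IgG against sham.

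The other 17 genes called higher rose by 0.15 to 0.32 on the log2 scale. Rps12, a small subunit protein of the head, stood at 182, 195 and 193 CPM in sham and at 244, 250, 242, 225 and 226 with IgG. Its change was 1.25-fold (log2 0.32 ± 0.06 SE, edgeR adjusted p = 0.000776), and the groups did not overlap. Rpl13a, whose introns host snoRNAs, was at 315, 296 and 318 CPM in sham and at 365, 395, 389, 371 and 368 with IgG, also without overlap (1.22-fold, edgeR adjusted p = 0.000388).

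Rpl12, a protein of the stalk base, was 1.21-fold higher (edgeR adjusted p = 0.000513), and all of its IgG libraries lay above its sham libraries. Rpl22, an RNA-binding protein of the large subunit, was 1.19-fold higher (edgeR adjusted p = 0.00053), from 149 ± 1.58 CPM (SD, n = 3) to 177 ± 5.6 (n = 5). On reads upstream of the middle of the transcript, the 5' part, Rpl22 stood at log2 0.03 (edgeR adjusted p = 0.791). On reads of the 3' part Rpl22 kept its call. Its paralogue Rpl22l1 stood at 19.0 ± 2.32 CPM in sham and 17.4 ± 1.28 with IgG and was not called (edgeR adjusted p = 0.417). Rplp1 was 1.16-fold higher (edgeR adjusted p = 0.0148), while its stalk partners Rplp0 (1.01-fold) and Rplp2 (1.13-fold) did not pass.

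The 5S ribonucleoprotein genes, whose proteins can bind Mdm2 when ribosome assembly is disturbed, differed in their calls. Rpl11 was 1.11-fold higher with IgG (edgeR adjusted p = 0.0189), and Rpl5 stood at 1.05-fold (edgeR adjusted p = 0.35). Whether these differ from each other was not tested. Rpl11 lost its call without sham replicate 2 or replicate 3 (edgeR adjusted p = 0.0601 and 0.0675). It also lost it when a trend on transcript length was removed (0.153) and on reads of the 5' part (0.0927). Of 49 large subunit genes 13 were called higher (26.5%), and of 31 small subunit genes 5 (16.1%), a difference that was likewise not tested. Rps6, the target of S6 kinase, Rpsa, Rps19, Rpl19, Rpl32 and Rplp0 did not pass in this comparison, and their log2 fold changes lay between 0.02 and 0.11.

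**Figure D2:**
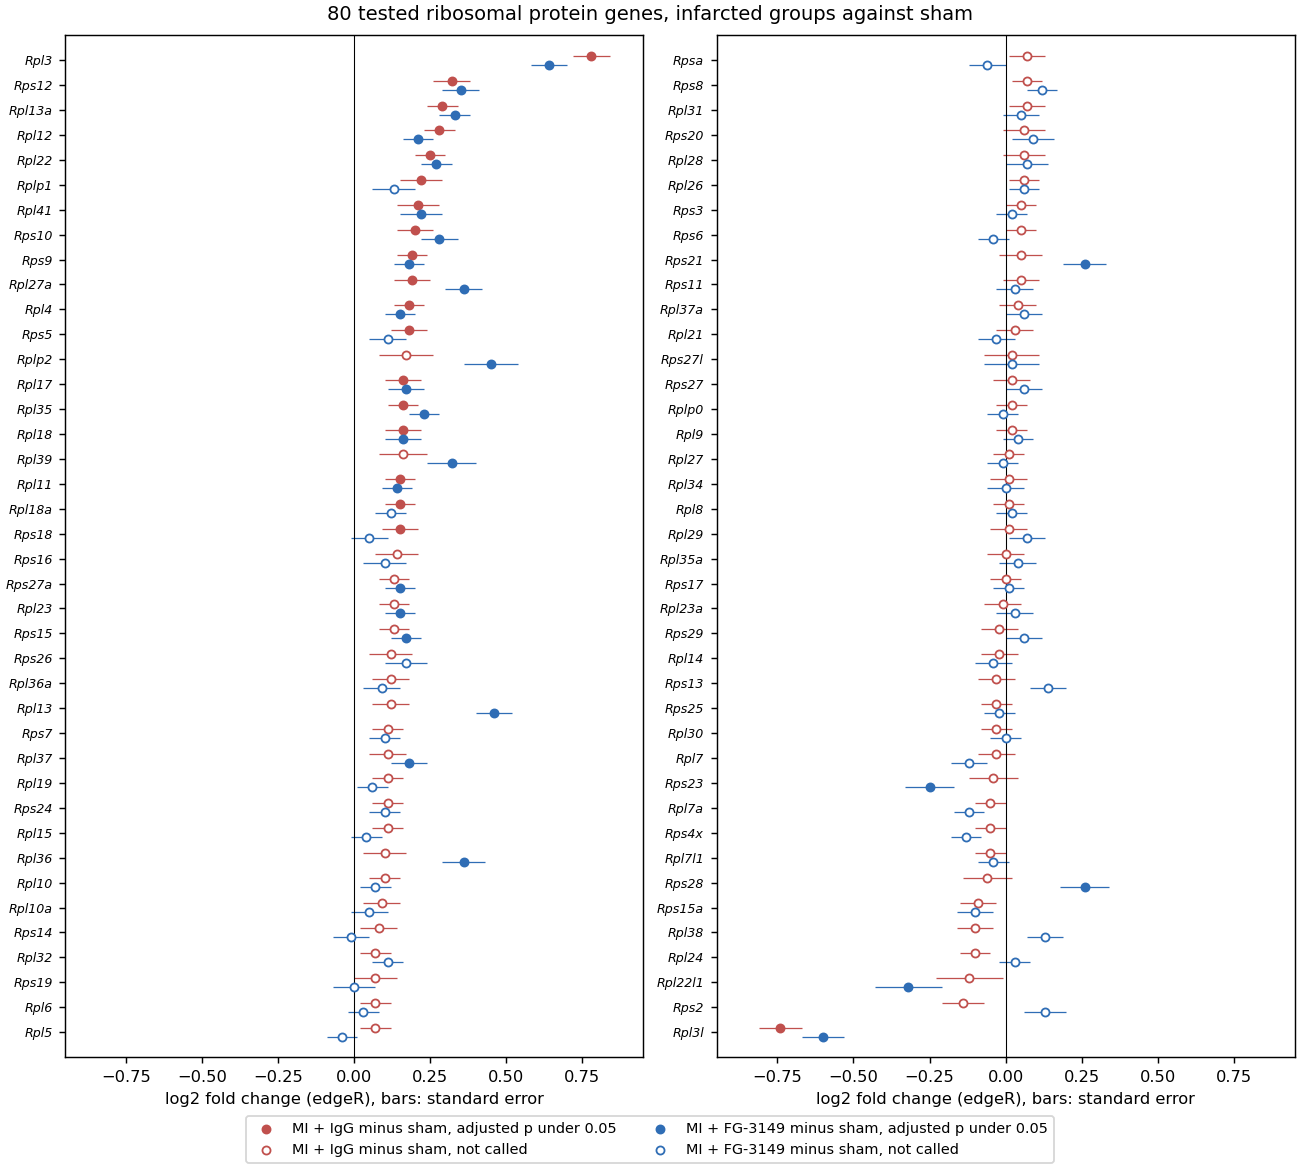
Log2 fold changes of the 80 tested genes for IgG minus sham (red) and FG-3149 minus sham (blue) from edgeR, with standard errors; filled points passed an adjusted p of 0.05 over all genes. Rpl3 and Rpl3l lie at 0.78 and -0.74 with IgG, and the other called genes lie between 0.15 and 0.32 in that contrast.

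The count of genes called higher rested on the sham libraries. It fell from 18 to 8 without sham replicate 2 and to 10 without sham replicate 3. Over all genes the number fell as well, from 2393 of 13434 to 1833 of 13571 and 1965 of 13569. Rpl3 and Rpl3l stayed past the threshold in each refit that left out a library. When a smooth trend of fold change on transcript length was removed from all genes, 9 genes were higher and 4 lower (Rpl3l, Rpl24, Rpl7a and Rps2), and the median was 0.008. That step also moved the median of all genes to -0.071, with 1881 of 13434 genes called higher and 3220 lower.

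The infarcted mice given FG-3149 were also set against sham. This contrast shares the sham libraries with the previous one, so the 2 sets of calls are not independent. Here 24 of the 80 genes were higher and 3 lower (3.75%), against 15.6% and 13.9% of all genes, or 29.5% in either direction. The libraries did not overlap in 29 genes that were higher and 5 that were lower, against 16.6% and 15.6% of all genes. The median log2 fold change was 0.066. The values of each contrast are therefore given side by side.

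Rps12 stood at 241, 229, 277, 237 and 231 CPM with FG-3149 (1.28-fold of sham, edgeR adjusted p = 0.000467), and Rpl13a at 386, 377, 418, 385 and 374 CPM (1.25-fold, edgeR adjusted p = 0.000201). Replicate 3 was the highest library for both genes. The largest rises after that of Rpl3 were those of Rpl13, a large subunit protein (1.37-fold, edgeR adjusted p = 4.44e-05), and Rplp2 (1.37-fold, edgeR adjusted p = 0.00161). Rplp2 was at 122, 119 and 136 CPM in sham, 133, 132, 157, 145 and 140 with IgG and 150, 153, 207, 175 and 175 with FG-3149. Rpl27a, Rpl36 and Rpl39 were higher at 1.28-fold, 1.29-fold and 1.24-fold of sham. The call of Rpl39 ended on reads of the 3' part, where its log2 fold change was 0.09 (edgeR adjusted p = 0.43), and with the length trend removed (0.15, edgeR adjusted p = 0.106).

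The 3 genes called lower against sham were Rpl3l, Rpl22l1 and Rps23. Rpl22l1 was at 21.6, 17.9 and 17.3 CPM in sham and at 14.6, 14.5, 19.3, 14.6 and 12.9 with FG-3149 (0.8-fold, edgeR adjusted p = 0.0402), and the groups overlapped. Rps23, a protein of the decoding centre, was at 65.5, 67.6 and 64.5 CPM in sham and at 58.3, 56.8, 60.6, 48.4 and 53.3 with FG-3149 (0.843-fold, edgeR adjusted p = 0.0239). Without sham replicate 1, without sham replicate 2 or without FG-3149 replicate 4 only 1 gene, Rpl3l, was still called lower, and without FG-3149 replicate 3 the number was 5. Rpl22l1 also lost its call without FG-3149 replicate 1, 2 or 5 (edgeR adjusted p = 0.0669, 0.0799 and 0.0932), in the fit of these groups alone (0.0537) and with the replicate block (0.102). Rps23 also lost its call with the replicate block (edgeR adjusted p = 0.053) and on reads of the 3' part (0.17). Almost all of its exon reads lay in the 3' part, with a mean 5' share of 0.0405% in sham and 0.136% with FG-3149. For Rps23 the 3' count therefore cannot show whether the change lay in 5' reads. The count called higher fell from 24 to 14 without sham replicate 2 and to 15 without sham replicate 3. Over all genes that number fell from 2098 of 13434 to 1456 of 13571 and 1673 of 13569. Removing the length trend gave 8 higher and 15 lower (18.8%) and a median of -0.076, against -0.061 for all genes. With that step 1641 of all 13434 genes were called higher and 2711 lower.

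FG-3149 was then compared with IgG among infarcted mice, the comparison between both antibodies. Rpl13, Rps2, Rps28 and Rpl36 were higher with FG-3149, and no ribosomal protein gene was lower. These 4 of 80 genes are 5.0%, against 0.916% of all genes called higher and 0.156% called lower, 1.07% in either direction. The libraries did not overlap in 8 genes that were higher and 0 that were lower, against 1.9% and 1.24% of all genes. With no gene called lower by edgeR, 15 of the 80 had an unadjusted p under 0.05 in either direction, against 13.8% of all genes. DESeq2 called 9 higher and 0 lower, against 1.65% and 0.447% of all genes. The median log2 fold change of the 80 genes was 0.004, against -0.012 for all genes. This contrast shares the IgG libraries, with the opposite sign, with the contrast of IgG and sham.

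Rpl13 stood at 285, 282, 294, 299 and 262 CPM with IgG and at 338, 365, 398, 353 and 349 with FG-3149 (1.27-fold, log2 0.34 ± 0.05 SE, edgeR adjusted p = 0.00299). Rps2, a protein of the mRNA entry channel, stood at 690, 650, 678, 639 and 615 CPM with IgG and at 727, 781, 922, 767 and 765 with FG-3149 (1.21-fold, edgeR adjusted p = 0.0212). Its sham libraries, at 736, 715 and 716 CPM, lay between both groups or within the lower end of the FG-3149 group. Neither gene's IgG libraries overlapped its FG-3149 libraries.

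Rps28, at the mRNA exit, was at 68.2 to 84.0 CPM with IgG and 84.3 to 111 with FG-3149 (1.25-fold, edgeR adjusted p = 0.0404). Rpl36 was at 148 to 166 CPM with IgG and 174 to 218 with FG-3149 (1.2-fold, edgeR adjusted p = 0.0404). The groups did not overlap for either gene, although the Rps28 values came within a fraction of a CPM. The count of 4 fell to 2, Rpl13 and Rps2, without FG-3149 replicate 3, the library with the highest level of ribosomal protein genes. It also fell to 2 without FG-3149 replicate 4 and to 1 without IgG replicate 2 or replicate 5. It was 1 when only these groups were fitted. Over all genes the number called higher fell as well, from 123 of 13434. It was 62 of 13402 and 65 of 13411 without FG-3149 replicates 3 and 4. It was 62 of 13388 and 77 of 13385 without IgG replicates 2 and 5, and 76 of 13082 with these groups alone.

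Rpl3 and Rpl3l lay slightly nearer to sham with FG-3149 than with IgG, and neither difference passed (log2 fold change -0.14 ± 0.05 SE, edgeR adjusted p = 0.265, and 0.14 ± 0.07, edgeR adjusted p = 0.365). The log2 ratio of Rpl3l to Rpl3 was 0.27 higher with FG-3149 (-0.38 against -0.65), with a 2-sided exact permutation p of 0.0556 both before and after adjustment over the 3 contrasts. The ranges of the ratio overlapped, from -0.93 to -0.38 with IgG and from -0.64 to -0.21 with FG-3149. Leaving out FG-3149 replicate 2, FG-3149 replicate 4 or IgG replicate 1 gave exact permutation p-values of 0.0476, 0.0317 and 0.0317, with differences of 0.31, 0.33 and 0.34. Over all 10 such fits the difference ran from 0.20 to 0.34 and the exact permutation p from 0.0317 to 0.111, none of them adjusted over the contrasts.

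The level of the family as a whole differed more between libraries than between infarcted groups. Relative to the mean of sham, the median log2 CPM of the 80 genes was 0.086, 0.106, 0.101, 0.033 and -0.001 in the IgG libraries. In the FG-3149 libraries it was 0.053, 0.058, 0.188, 0.051 and 0.013. The FG-3149 library numbered 3 stood highest, with 72 of 80 genes above the sham mean, and IgG replicate 5 stood no higher than sham. In no library did the median of all genes depart from the sham mean by more than 0.007.

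**Figure D3:**
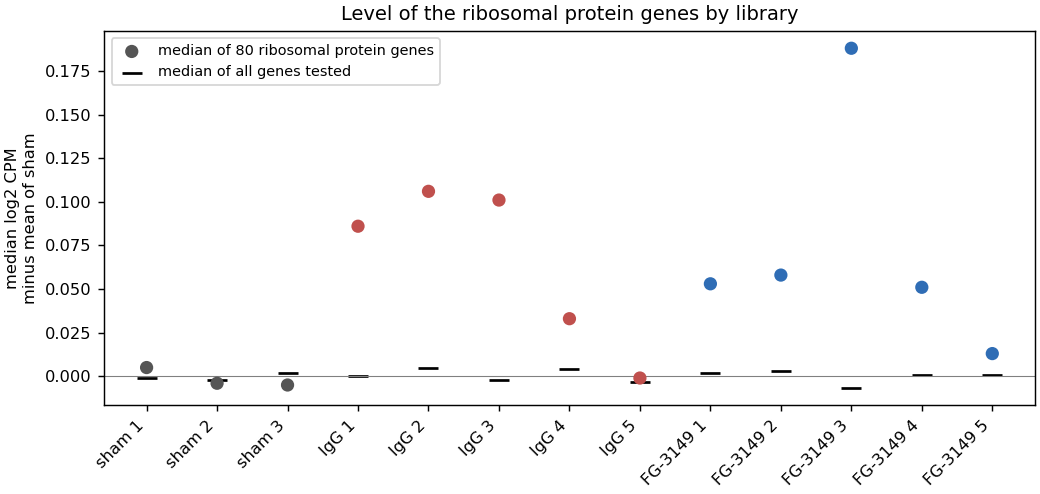
Median over the 80 tested genes of log2 CPM minus the mean of sham, by library (circles), with the same median over all genes tested (dashes). FG-3149 replicate 3 lies at 0.188 and the other FG-3149 libraries at 0.013 to 0.058, within the range of the IgG libraries.

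The genes also moved together within groups. After group means were removed, the median pairwise correlation of log2 CPM was 0.55 over 3160 pairs and 13 libraries, and 97.1% of pairs were above 0. These pairs share the libraries and their scaling, and the value is a description. No value for pairs of other genes is set beside it. FG-3149 replicate 3 stood apart in level, and its part in these correlations was not tested. The median correlation with the other genes was lowest for Rpl3l (0.23), Rpl7l1 (0.23) and Rpl3 (0.24), and was 0.73 for Rpl19 and 0.71 for Rplp0. Rpl3 and Rpl3l correlated at -0.61 with each other.

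The extra reads of the 4 genes called with FG-3149 lay towards the 5' end of their transcripts. Among exons with at least 5 reads-per-million in the IgG group, the largest fold was in Rps2, whose second exon encodes the start of the protein. Its 177 coding bases (GRCm38, chr17:24720276-24720452, plus strand) are printed because they carry the largest difference, with the start codon in capitals.
Rps2: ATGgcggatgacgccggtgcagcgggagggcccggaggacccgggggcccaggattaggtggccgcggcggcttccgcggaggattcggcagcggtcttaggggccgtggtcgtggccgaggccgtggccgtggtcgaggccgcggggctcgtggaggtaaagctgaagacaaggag
G and C made up 72.3% of this stretch. The exon held 24.5, 19.1 and 29.1 reads-per-million in sham, 25.8, 17.9, 34.6, 44.9 and 30.2 with IgG and 96.3, 123, 154, 128 and 121 with FG-3149. The mean of FG-3149 was 4.06-fold that of IgG, and the groups did not overlap. The last 3 exons of the same gene showed no such excess, at 254, 89.3 and 116 reads-per-million with FG-3149 and 264, 94.3 and 118 with IgG.

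The pattern reached much of the family. The main transcript of each gene was split at its middle, and exons were assigned by their own middle to its 5' part or its 3' part. The share of exon reads in the 5' part, as the median over the 80 genes, was 37.9 to 39.2% in sham libraries, 37.1 to 42.1% in IgG libraries and 44.0 to 45.4% in FG-3149 libraries. Its highest IgG value came from replicate 4. In Rpl13 the share was 16.1% ± 2.5 (SD, n = 3) in sham, 19.3% ± 3.73 (n = 5) with IgG and 32.8% ± 1.42 (n = 5) with FG-3149. In Rpl41, which encodes a very short basic protein, it was 2.89% ± 0.861 (n = 5) with IgG and 7.31% ± 0.746 (n = 5) with FG-3149. Rpl3 (53.5% ± 1.6 and 54.6% ± 2.56) and Rpl3l (47.3% ± 0.981 and 49.6% ± 1.07) differed little.

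The log2 ratio of reads in the 5' part to those in the 3' part was then tested with limma over 9737 genes, a test chosen after the exon values were seen. With FG-3149 against IgG it was higher in 41 of 79 ribosomal protein genes (51.9%) and lower in 0, against 9.34% and 0.185% of all genes. At the level of single libraries, the 5' share did not overlap between the groups in 40 of 80 genes, against 8.7% of 13036 genes, and in 53 genes, against 10.8%, without IgG replicate 4. The changes were 1.05 ± 0.15 (SE) for Rpl13, 0.95 ± 0.10 for Rps2, 0.95 ± 0.13 for Rps28 and 0.75 ± 0.12 for Rpl36 (limma adjusted p = 0.00127, 0.000525, 0.000792 and 0.00252). With FG-3149 against sham 60 of 79 genes were higher, against 36.8% of all genes, and 0 lower, against 0.452%. With IgG against sham 1 of 79, Rpl37, was higher and 0 lower, against 3.7% and 0.0924%. Rpl37 is named after its value was seen. The median log2 change of the ratio with FG-3149 against IgG was 0.27 in the ribosomal protein genes and 0.1 over all genes. It was 0.4 and 0.26 with FG-3149 against sham, and 0.12 and 0.15 with IgG against sham.

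**Figure D4:**
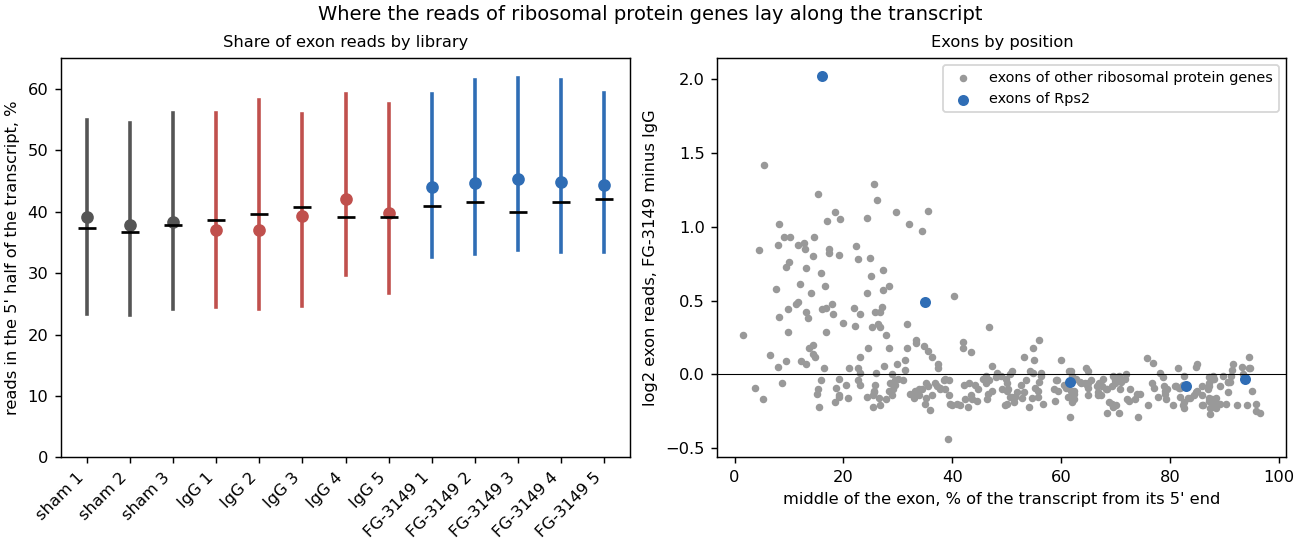
Left, share of exon reads in the 5' part of the main transcript by library, as the median (circle) and quartiles (bar) over 80 ribosomal protein genes, with the median over all genes (dash). Right, log2 difference of exon reads between the FG-3149 and IgG means for 354 exons against their place in the transcript; the Rps2 exon discussed in the text is the highest point. The FG-3149 libraries lie at 44.0 to 45.4%, above the other libraries, and exons with a large excess lie in the first part of the transcript.

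By position, the median log2 difference between FG-3149 and IgG was 0.41 for the 81 exons centred in the first of 4 equal stretches of the transcript. It was -0.04, -0.09 and -0.09 for the 104, 93 and 76 exons of the following stretches. Across the 354 exons the difference correlated with position at -0.54, and across the 331 exons with a sequence it correlated with the share of G and C at 0.40. Position and base composition correlated with each other at -0.41. Exons of a gene share its reads, so these values describe the exons. The same stretches gave 0.20, 0.12, 0.03 and 0.00 for IgG against sham.

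Counting only the reads of the 3' part ended the calls between the antibody groups. No ribosomal protein gene was higher or lower (0 of 80, against 0.397% and 0.101% of 12838 genes), the median log2 fold change was -0.058, and Rps2 stood at -0.01 (edgeR adjusted p = 0.984). Rpl13, Rps28 and Rpl36 stood at 0.12, 0.13 and 0.14 (edgeR adjusted p = 0.393, 0.514 and 0.393). Counting only the 5' part called 27 of 79 genes higher (34.2%, against 5.4% of 11176 genes) and 0 lower (against 0.886%), with 0.84 for Rps2 and 1.04 for Rpl13. Over the ribosomal protein genes, the 5 FG-3149 libraries held the 5 highest medians of the 5' share. The treatment and any other difference between these libraries and the rest therefore cannot be told apart.

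**Figure D5:**
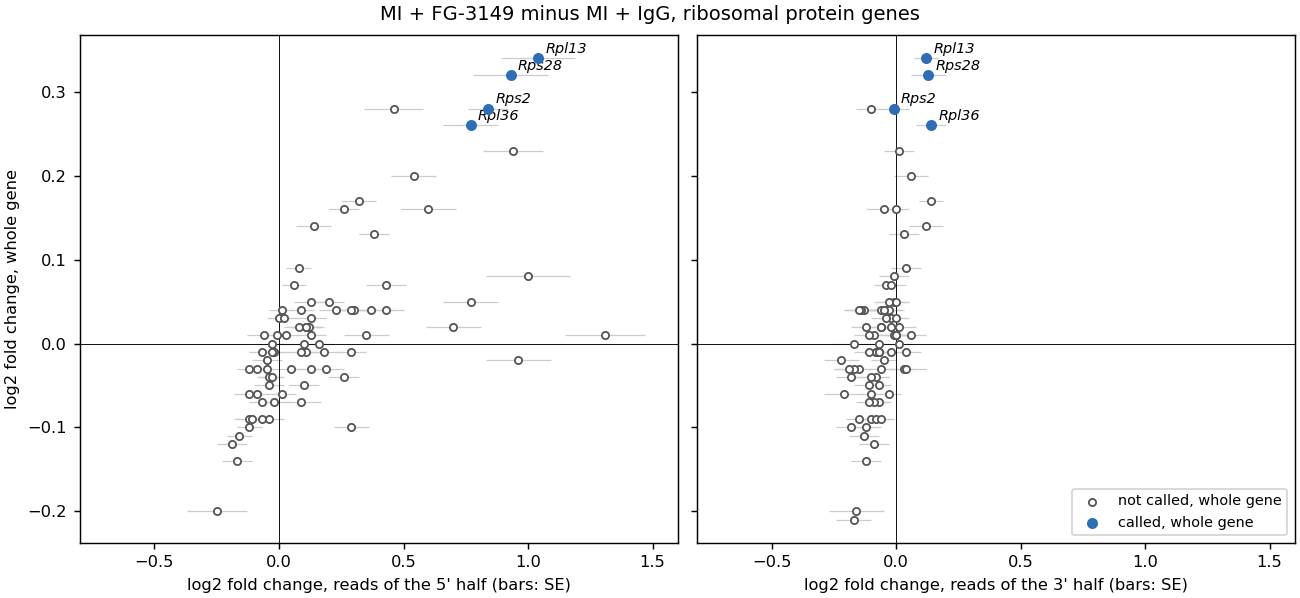
Log2 fold change with FG-3149 against IgG for the whole gene (vertical axis) and for reads in the 5' part (left) or the 3' part (right) of the main transcript, with standard errors; filled points were called on the whole gene. Rpl13, Rps28, Rps2 and Rpl36 lie at 0.77 to 1.04 in the 5' part and at -0.01 to 0.14 in the 3' part.

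The contrasts with sham were counted over the same parts. With reads of the 3' part, 17 genes were higher with IgG than in sham (21.2%, against 16.5% of genes), 16 of them among the 18 called on whole genes, and Rpl3l was lower (against 14.6%). With FG-3149 against sham, 13 genes were higher (16.2%, against 14.1%), all 13 among the 24, and 6 were lower (7.5%, against 12.5%). Rpl3 and Rpl3l kept values of 0.64 and -0.60 in that contrast. Rplp2, at 0.45 on the whole gene, stood at 0.03 there (edgeR adjusted p = 0.777). With reads of the 5' part, 4 genes were higher with IgG than in sham, Rpl12, Rpl13a, Rpl3 and Rps12 (5.06%, against 11.8%), and 1, Rpl3l, was lower (against 12.1%). With FG-3149 against sham 33 were higher (41.8%, against 14.4%) and 7 lower (against 12.2%).

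Transcript variants of ribosomal protein genes were compared as well. Shares of transcripts in the deposited RPKM values were tested with limma over 4721 transcripts, of which 21 came from 11 ribosomal protein genes. With FG-3149 against IgG, 8 of the 21 were called, from 4 of the 11 genes (Rpl19, Rpl38, Rpl31 and Rpl35a), against 8.35% of all transcripts. With FG-3149 against sham 6 of 21 were called, from 3 genes, against 15.1%. With IgG against sham it was 0 of 21, against 0.169%. Each share was set against the gene's other transcripts, so calls within a gene mirror each other and are not separate results. Rpl31 and Rpl35a are named after their values were seen. Of the Rpl19 RPKM, the lesser of the 2 listed transcripts in sham held 10.7 to 16.5% there, 7.78 to 22.4% with IgG and a mean of 49.2% ± 1.61 (SD, n = 5) with FG-3149 (limma adjusted p = 0.000312). The other listed Rpl19 transcript held the remainder, so both stood at nearly equal shares in each FG-3149 library. How reads were divided between transcripts of a gene is not given in the sources used here. In Rpl38, the second most abundant transcript held 8.39% ± 1.67 (SD, n = 3), 6.61% ± 3.79 (n = 5) and 32.3% ± 5.01 (n = 5) of the RPKM in the same order (limma adjusted p = 0.000454). The whole genes Rpl19 (edgeR adjusted p = 0.724) and Rpl38 (edgeR adjusted p = 0.052) were not called. Whether these shares rest on the 5' reads was not tested.

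Genes that make, use and control ribosomes were counted in the same fit, as lists. Of 55 ribosome biogenesis genes, 15 were higher and 1 lower with IgG than in sham (median 0.09). They included Rrp12, which exports pre-ribosomal subunits (1.76-fold, edgeR adjusted p = 4.2e-05), the nucleolar proteins Ncl (1.25-fold, adjusted p = 7.93e-05) and Npm1 (1.17-fold, adjusted p = 0.00202), and Sbds, a factor of late large subunit maturation (1.27-fold, adjusted p = 0.00013). Of 38 translation factors 11 were higher and 4 lower (median 0.06). Eef1a1, the elongation factor that brings aminoacyl-tRNA, rose 1.74-fold (edgeR adjusted p = 2.14e-07), from 885 CPM in sham to 1543 with IgG. Eif4a1 (1.35-fold) and Pabpc1 (1.29-fold) also rose, and Eif1 fell to 0.788-fold.

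Of 16 RNA polymerase I genes, 1 was higher and 3 were lower (median -0.04). Polr1a, the largest subunit, was at 0.859-fold (edgeR adjusted p = 0.0201), and Cd3eap, another subunit, at 1.19-fold (edgeR adjusted p = 0.0219). Of 23 regulators of mTOR and of 5' pyrimidine tract mRNAs, 1 was higher and 6 were lower (median -0.11). Eif4ebp1, a repressor of cap-dependent translation, was higher (1.47-fold, edgeR adjusted p = 0.000254), and Tsc2, a brake on mTOR, was lower (0.863-fold, edgeR adjusted p = 0.00583). Eif4ebp2 went the opposite way to Eif4ebp1 (0.823-fold, edgeR adjusted p = 0.00836), and Tial1 was lower too (0.807-fold, edgeR adjusted p = 0.0034). In the Myc network, 2 of 10 were higher and 1 lower (median 0.02), and Myc itself went from 1.84 to 5.22 CPM (2.82-fold, edgeR adjusted p = 2.68e-05).

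The remaining lists held few calls in this comparison. None of 8 snoRNA host genes (median 0.13) passed. Of 14 ribosome quality control genes 1 was higher and 1 lower (median -0.08). For these lists too, the background was 17.8% of genes higher and 15.9% lower.

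With FG-3149 against IgG few genes of these lists were called, as among all genes (0.916% higher and 0.156% lower). Among translation factors Eif3f was higher (1.18-fold, edgeR adjusted p = 0.0252) and Eef1a1 lower (0.833-fold, edgeR adjusted p = 0.0252), so that Eef1a1 stood between IgG and sham at 1285 CPM. Akt1s1, an mTOR complex subunit, was higher (1.23-fold, edgeR adjusted p = 0.0469). On reads of the 3' part none of these 3 genes was called. No gene passed among those for ribosome biogenesis (0 of 55), RNA polymerase I (0 of 16), the Myc network (0 of 10), snoRNA hosts (0 of 8) or quality control (0 of 14). Of the fibroblast markers 1 of 11, Lum, was lower (0.754-fold, edgeR adjusted p = 0.00393).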

How the data were processed

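RNA from left ventricle outside the ischaemic zone was extracted with Trizol, and stranded mRNA libraries were made from 500 ng of it, per the labels' protocols. The 13 libraries were read on the same flow cell (75 bases, single end). Gene and exon values deposited by the authors are estimated counts, judged from the values themselves; the authors also deposited RPKM values per transcript. The genome build was mm10, per the submitters' processing notes. How reads were aligned, counted and assigned between copies is not given in the sources used here, so reads shared with near-identical copies are uncertain: 258 entries for ribosomal protein pseudogenes held 0.0018 to 0.0023% of reads.

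Counts were rounded (of the gene values that were not 0, 79.4% were whole to within 0.01), filtered by filterByExpr (13434 genes), scaled by TMM and fitted over all 13 libraries with edgeR 4.0.16 in R 4.3.3 (quasi-likelihood, robust, no covariate). Calls are at an adjusted p under 0.05 over all genes, CPM include TMM factors, and ± gives SD over libraries or, for log2 fold changes, SE. Transcript shares (pseudocount 0.1) and 5' to 3' ratios (pseudocount 0.5, at least 20 reads per part on average) were tested with limma 3.58.1. Exons were placed in the 5' or 3' part of the main transcript by their middle. DESeq2 1.42.0 served as an alternative.

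The genes, lists and tests were chosen with earlier results of these data known. Named genes were those of paralogue pairs, the 6 highest and 6 lowest fold changes per contrast, the 4 highest and 4 lowest RPKM, 10 fixed genes, and up to 4 genes with the smallest p per list. Counts over transcript parts, their ratio and the exon comparisons were added after seeing the data. Other lists were markers of cardiomyocytes, fibroblasts, endothelium, macrophages, lymphocytes, smooth muscle and pericytes, erythroid cells and atrium. In IgG against sham 1 of 10 endothelial markers was higher and 2 were lower. Of 6 lymphocyte markers tested 0 passed, and of 3 erythroid markers 0. Of 8 smooth muscle and pericyte markers 2 were higher and 1 lower, and of 2 atrial markers 1 was higher.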

Additional observations from a re-analysis of the deposited data

Results flagged for a closer look

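Among 74 groups of 5 libraries tested for the named genes, 12 had a highest or lowest library far from the others. Chance flags about 1 in 20 where groups are independent. These groups share their libraries, and the genes moved together, so that rate is no yardstick here and the number is a description. In 10 of the 12 flagged groups the outlying library was FG-3149 replicate 3, always as the highest. Its levels in CPM were 825 for Rplp0 (others 729 to 752), 922 for Rps2 (727 to 781), 442 for Rpl7 (401 to 407) and 418 for Rpl13a (374 to 386). They were 338 for Rps29 (280 to 290), 297 for Rpl24 (258 to 266), 277 for Rps12 (229 to 241) and 151 for Rpl39 (119 to 127). Rps28 stood at 111 (84.3 to 90.6) and Rpl22l1 at 19.3 (12.9 to 14.6). The library also had the highest share of Rn45s, 2.86% of counts; the part of this in its levels was not tested. In IgG replicate 5, Rpl24 was low at 231 CPM (247 to 253) and Rpl38 at 95.7 CPM (104 to 107).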

How the results depend on the processing

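Rpl3 and Rpl3l kept their direction and their calls against sham in every alternative run, and neither was called between FG-3149 and IgG in any. The other counts moved. With IgG against sham, removing the length trend gave 9 higher, 4 lower and a median of 0.008, the 5' part 4 higher, and a fit of these groups alone 2 lower. With FG-3149 against IgG, the number higher was 9 with DESeq2, 1 with these groups alone, 2 with the length trend removed, 2 on log2(RPKM + 1), 2 on log2(RPKM + 0.1) and 1 without a filter on RPKM. It was 0 on the 3' part, 0 there without IgG replicate 4, and 27 on the 5' part; the medians were -0.058, -0.084 and 0.102. The length trend removed gave 3 lower and a median of -0.066. With FG-3149 against sham, the length trend gave 8 higher, 15 lower and a median of -0.076, the 3' part 13 higher and 6 lower, and the 5' part 7 lower and a median of 0.136. Over all 13434 genes, removing the length trend gave 1881 higher and 3220 lower, 133 and 33, and 1641 and 2711, by contrast in that order. Between FG-3149 and IgG, 221 of all genes were higher with DESeq2 and 76 with these groups alone. On RPKM they numbered 79, 75 and 56 in the order above. The causes of these shifts were not tested. Rps2 with FG-3149 against IgG turned to -0.01 on the 3' part and -0.03 there without IgG replicate 4, and Rpl11 with FG-3149 against sham turned to -0.01 with the length trend removed.

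Replicate numbers were shared between groups, but same-numbered libraries deviated together only weakly (correlations of -0.04 to 0.18 over 11 pairs, 2 of which were best with their own number), so the numbers were not taken as pairs. A replicate block gave 25 higher and 1 lower with IgG against sham. It gave 6 and 1 with FG-3149 against IgG (Rps23 lower) and 30 and 1 with FG-3149 against sham. Over all 13434 genes it gave 2207 higher and 1932 lower, 169 and 46, and 1913 and 1663 in the same order.

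Leaving out 1 library at a time gave 8 to 21 higher and 1 lower with IgG against sham, 1 to 5 higher and 0 lower with FG-3149 against IgG, and 14 to 24 higher and 1 to 5 lower with FG-3149 against sham. In the same order, genes called higher over all genes numbered 1833 to 2561, 62 to 175 and 1456 to 2029. The medians of the ribosomal protein genes ran from 0.058 to 0.089, from -0.028 to 0.014 and from 0.038 to 0.080. The log2 ratio of Rpl3l to Rpl3 ran from -1.59 to -1.45, from 0.20 to 0.34 and from -1.32 to -1.18. Against sham its exact p then could not fall under 0.0571. Of 31 called values of single named genes 19 lost their call in at least 1 alternative, and 32 values that were not called gained a call in at least 1.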
